A study of Homo sapiens with 6 samples.

Results

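Complement and coagulation are the main proteolytic cascades of the plasma, and the genes described here encode their zymogens and cofactors, the receptors and inhibitors that hold them in check, and the plasminogen system that dissolves fibrin. Membership followed a list of 58 gene symbols, from which the fibrinogen chains and the serpins had been left out, and 52 of the 58 had a row among the 35856 genes of the expression table. C9, MBL2, F9, F11, PLG and ITIH1 are not analysed here. The labels give the cells as HCCLM3, an established human hepatocellular carcinoma line, and the RNA was read in 6 libraries. In 3 of them the cells carried a plasmid that overexpressed the long non-coding RNA LINC00862, and in the other 3 an empty plasmid of the same kind (labelled NC, and called Empty here). The comparison asks which genes differ when LINC00862 is overexpressed. The labels do not say whether the 3 libraries of a group came from separate cultures, so the p-values measure the spread between these libraries, which may be technical. They also do not say how many clones or pools of transfected cells were used, so a difference that came with the cells of a group and a response to LINC00862 cannot be told apart.

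Complement is started by 3 routes. In the classical pathway C1r activates C1s, which cleaves C4 and C2, and in the lectin pathway the MASPs serve in their place. In the alternative pathway factors B and D amplify C3 cleavage. All routes meet at C3 and pass through C5 to the membrane attack complex. In blood clotting, tissue factor binds factor VII and starts a chain of vitamin K dependent proteases that ends in thrombin, while the urokinase and tissue plasminogen activators turn plasminogen into plasmin. Hepatocytes are the chief source of most of these plasma proteins, whereas tissue factor, urokinase, the protease-activated receptors and the membrane complement regulators act at the surface of many cell types.

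Levels are given as FPKM, the mapped fragments per kilobase of transcript scaled to the size of the library, as the table holds them, and they can be compared between genes because they are per length. Differences are log2 fold changes of LINC00862 over Empty, fitted by edgeR on the counts after TMM scaling, with the standard error (SE) and the p-value adjusted over all genes tested. A gene was called at an adjusted p under 0.05. The libraries held between 58241123 and 68229070 counts. The 10 most abundant genes took 8.42% to 11.7% of the counts in the Empty libraries and 19.4% to 29.2% in the LINC00862 libraries, the highest share being that of LINC00862 replicate 3. LINC00862 itself had 11, 21 and 6 counts in the 3 Empty libraries, against 145, 121 and 76 in the LINC00862 libraries, a log2 fold change of 3.22 (SE 0.53, adjusted p = 0.000583), and the value was 3.83 without Empty replicate 2. The level of the gene thus went with the labels, although its counts do not separate the plasmid's transcript from that of the cell. The mean FPKM of LINC00862 was low in both groups, at 0.0507 in the Empty and 0.449 in the LINC00862 libraries. RBM47, an RNA-binding protein that the study follows as a target, had a log2 fold change of 5.40.

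The complement members were mostly higher in the LINC00862 libraries, whereas the coagulation and plasminogen members went both ways and their summed level was lower. Of the 52 members in the table, 41 passed the filter on low counts. Among these 41, 21 rose and 12 fell, which is 51.2% and 29.3%, against 34.4% and 29.8% of the 20741 genes tested. In all, 33 members or 80.5% were called, and the share over all genes was 64.2%, so a call alone said little in this comparison. The median log2 fold change was 0.73 over the 41 members and 0.11 over all genes, and the median of the absolute values was 2.17 against 1.16. The 0.73 is the value of F2, a gene with few counts that was not called. The member median shifted with the libraries used, to 1.16, 1.26 and 1.54 without Empty replicate 1, 2 or 3 and to 1.18, 1.28 and 0.90 without LINC00862 replicate 1, 2 or 3, when 41 to 43 members passed the filter. Called members with a fitted change of at least 2-fold numbered 31, or 75.6%, against 49.8% of all genes, and those of at least 16-fold numbered 9, or 22%, against 15.9%. C4BPB, F7, F10 and F5 passed the filter with at least 1 Empty library under it, and CFP, VTN and PROC with at least 1 LINC00862 library under it. F2 and CPB2 had such libraries in both groups and were not called. No tested member had every library of a group under the filter. Since a gene can pass mainly on the group where it is high, these counts describe the members and are not support for them.

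Split by cascade, 14 of the 20 complement members tested rose and 4 fell, and their log2 fold changes had a median of 2.06. Of the 21 coagulation and plasminogen members tested, 7 rose and 8 fell, and the median was 0.06, the value of F13A1, which was not called. For complement these are 70% higher and 20% lower, and for coagulation 33.3% and 38.1%, against 34.4% and 29.8% of all genes, so the coagulation share higher was near that of all genes. The summed FPKM of the complement members was 97.0 ± 5.88 (SD, n = 3) in the Empty libraries and 362.0 ± 35.4 in the LINC00862 libraries. For the coagulation and plasminogen members it was 252.8 ± 23.4 and 46.0 ± 1.78. The ranges of the groups did not overlap in either sum. The sum over all members differed less, at 349.8 ± 28.2 and 408.0 ± 36.8. In the Empty libraries F3, PLAU and F2R made up 26.4%, 19.4% and 11.5% of the summed member FPKM, and in the LINC00862 libraries CD46 and CD55 led with 22.4% and 15.2%.

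**Figure D1:**
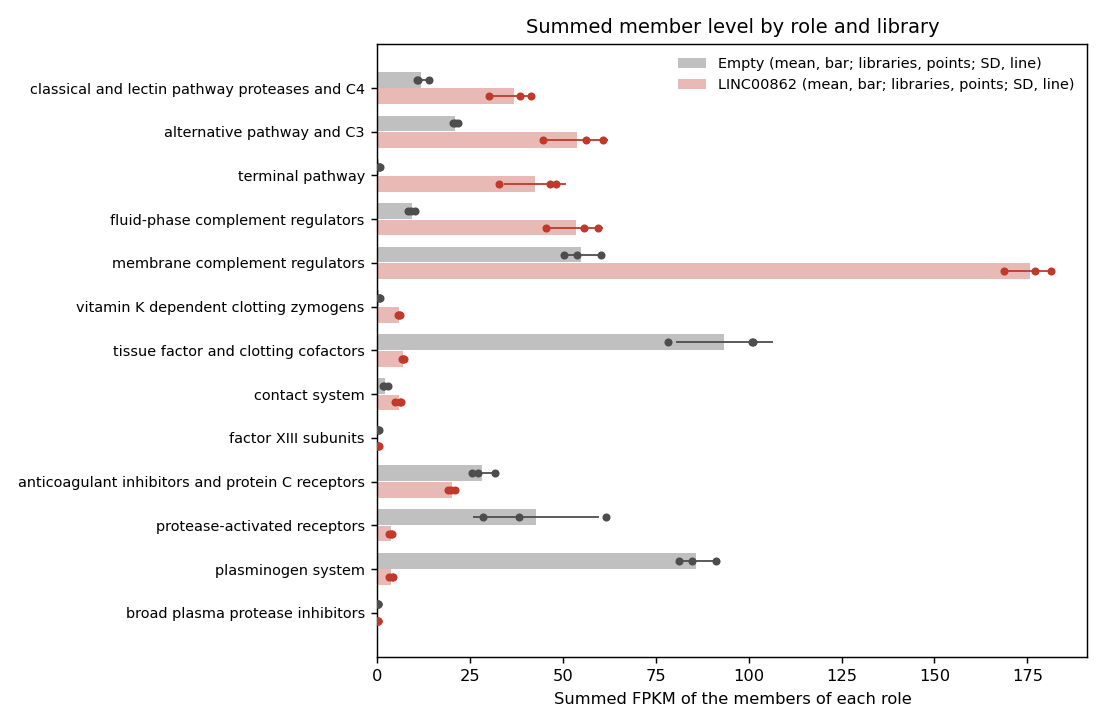
Summed FPKM of the members of each role in each of the 3 Empty and 3 LINC00862 libraries (linear axis, bars for the group mean, lines for the SD, 1 point per library). Terminal pathway genes, fluid-phase regulators and membrane regulators lie higher in the LINC00862 libraries, and tissue factor with its cofactors, the protease-activated receptors and the plasminogen system lie lower.

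Among the classical and lectin pathway members, 5 of 7 tested rose, C1R fell and MASP2 was not called. C4A and C4B encode the 2 isotypes of C4, the substrate of both routes. C4A had an FPKM of 2.04, 1.65 and 1.5 in the 3 Empty libraries, against 12.2, 12.9 and 6.69 in the LINC00862 libraries (log2 fold change 2.77, SE 0.23, adjusted p = 8.41e-06). C4B had 2.35, 2.01 and 1.94 against 11.6, 14.7 and 8.92 (2.64, SE 0.18, adjusted p = 2.35e-06). Every LINC00862 library was above every Empty library for both genes, and LINC00862 replicate 3 was the lowest of its group. The split between C4A and C4B is uncertain, because 83.2% and 83.7% of the 150-base windows of their longest transcripts also occur in other genes, chiefly each in the other. With the counts of both summed, a fit added after the data were seen gave a log2 fold change of 2.70.

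The C1 proteases did not move together. C1R, the protease that activates C1s, had an FPKM of 4.31, 3.64 and 3.73 in the 3 Empty libraries, against 1.29, 1.07 and 1.00 in the LINC00862 libraries (log2 fold change -1.61, SE 0.16, adjusted p = 3.22e-05). C1S, the protease that cleaves C4 and C2, had 0.747, 0.610 and 0.996 against 1.97, 1.59 and 1.65 (1.31, SE 0.24, adjusted p = 0.00121). Neither gene overlapped between the groups, and the ratio of C1R to C1S went from between 3.75 and 5.97 to between 0.606 and 0.675. C1RL, a C1r-like protease, had 3.53, 2.37 and 2.37 in the 3 Empty libraries, against 10.7, 10.6 and 11.5 in the LINC00862 libraries (2.18, SE 0.17, adjusted p = 7.17e-06). C1R and C1RL are neighbours whose exons overlap on the same strand, and 12.5% of the windows of C1R occur in C1RL, so a part of their reads could be counted for either. C2, the other substrate of C1s, was low at a mean FPKM of 0.0501 in Empty and 0.356 in LINC00862 and also rose (2.90, SE 0.41, adjusted p = 0.000235). Of its windows, 50.6% lie in an annotated readthrough transcript that joins it to CFB. MASP2, a lectin pathway protease, ran from 0.233 to 0.746 in the Empty libraries and from 0.0711 to 0.198 in the LINC00862 libraries. Its log2 fold change was -1.30 with a 95% interval from -2.47 to -0.13 and an adjusted p = 0.0521, and it was called (-1.57, adjusted p = 0.0252) without Empty replicate 3. MASP1 was under the filter, with 4 counts in all Empty and 24 in all LINC00862 libraries.

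In the alternative pathway, the convertase components rose and its activating protease fell. C3, on which all routes converge, had an FPKM of 9.38, 7.06 and 7.98 in the 3 Empty libraries, against 22.9, 23.1 and 15.9 in the LINC00862 libraries (log2 fold change 1.51, SE 0.16, adjusted p = 4.08e-05). CFB, the factor B that joins C3b in the convertase, had 9.24, 9.33 and 9.86 against 37.1, 32.7 and 27.9 (1.95, SE 0.15, adjusted p = 5.49e-06). CFD, the factor D that cleaves factor B, had 2.10, 3.67 and 3.70 against 0.425, 0.371 and 0.556 (-2.62, SE 0.39, adjusted p = 0.000358). None of these 3 genes overlapped between the groups, and CFD was the lowest of them in the LINC00862 libraries. For CFB, 77.4% of the windows are shared with the readthrough transcript. CFP, the properdin that stabilises the convertase, was low, with a mean FPKM of 0.130 in Empty and 0.0254 in LINC00862. It fell (-2.18, SE 0.73, adjusted p = 0.0269), but not without Empty replicate 2 or 3 or LINC00862 replicate 2 or 3 (adjusted p from 0.0677 to 0.0951), and its value was -2.99 without LINC00862 replicate 1. CFHR3, listed with this pathway, was under the filter with 0 counts in every Empty library and 62, 0 and 55 counts in the LINC00862 libraries, so a single LINC00862 library differed from the other two. Over the groups this is at least 37.2-fold higher, against a floor of 3 counts in the Empty group.

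The terminal pathway showed large rises in its 2 tested members, next to 4 that were near 0. C5, whose cleavage starts the membrane attack complex and frees the anaphylatoxin C5a, had an FPKM of 0.156, 0.142 and 0.169 in the 3 Empty libraries, against 18.1, 19.1 and 13.3 in the LINC00862 libraries. This was a log2 fold change of 6.90 (SE 0.20, adjusted p = 3.26e-08), or 119-fold. C8G, the lipocalin-like gamma chain of C8, had 0.508, 0.173 and 0.352 against 28.2, 28.9 and 19.3 (6.27, SE 0.34, adjusted p = 6.87e-07), or 77.2-fold. The lowest LINC00862 library of both genes was replicate 3, and it was still far above every Empty library. C6, C7, C8A and C8B, the other subunits of the complex in the table, had 0 counts in each Empty library. In the LINC00862 libraries C8A had 4, 15 and 7 counts, C8B had 0, 0 and 7, C6 had 3, 0 and 0 and C7 had 0, 0 and 4, so the chains that C8 needs besides C8G stayed under the filter. Over the groups C8A was at least 8.26-fold higher by the same floor. For these bounds a count of 0 over the Empty group was taken to allow up to 3 counts over that group, and this limit covers counting error only.

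The fluid-phase regulators included C4BPA, which had the highest fitted rise of the tested members, although F7 ranked above it (8.76 against 8.05) without Empty replicate 3. C4BPA and C4BPB encode the alpha and beta chains of C4b-binding protein, a cofactor for the inactivation of C4b that also carries protein S in plasma. C4BPA had an FPKM of 0.110, 0.150 and 0.0763 in the 3 Empty libraries, against 33.6, 31.1 and 27.0 in the LINC00862 libraries (log2 fold change 8.22, SE 0.26, adjusted p = 4.25e-08), or 299-fold. C4BPB had 0.0468, 0.0147 and 0.0647 against 5.04, 4.60 and 3.75 (6.77, SE 0.40, adjusted p = 1.08e-06), or 109-fold. Both chains were thus close to absent in the Empty libraries, and in the LINC00862 libraries C4BPA was the fourth most abundant member. CLU, the clusterin that blocks assembly of the attack complex, had 7.80, 8.32 and 9.43 against 20.7, 19.8 and 14.6 (1.27, SE 0.17, adjusted p = 0.000171). VTN, the vitronectin that shares this activity, was low and fell, from a mean FPKM of 0.496 to 0.0725 (-2.56, SE 0.55, adjusted p = 0.00295). CFI, the protease that inactivates C3b and C4b, was under the filter with 1, 6 and 6 counts in the 3 Empty libraries, against 30, 17 and 5 in the LINC00862 libraries.

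Of the membrane regulators, 2 of 3 rose. CD46, the membrane cofactor for cleavage of C3b and C4b, had an FPKM of 22.0, 16.6 and 12 in the 3 Empty libraries, against 89.4, 93.2 and 92.1 in the LINC00862 libraries (log2 fold change 2.63, SE 0.21, adjusted p = 6.19e-06). CD55, which speeds the decay of the convertases, had 10.8, 9.93 and 9.95 against 67.6, 60.5 and 58.4 (2.78, SE 0.14, adjusted p = 4.51e-07). They were the most abundant members in the LINC00862 libraries and stood far from the Empty range. CD59, which blocks the last step of the attack complex, had 27.5, 27.2 and 28.2 against 24.2, 23.4 and 18.1. Its FPKM were lower in each LINC00862 library, but the fitted log2 fold change after TMM scaling was -0.17, with a 95% interval from -0.49 to 0.16 and an adjusted p = 0.326. The ratio of CD46 to CD59 lay between 0.424 and 0.798 in the Empty libraries and between 3.70 and 5.09 in the LINC00862 libraries.

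**Figure D2:**
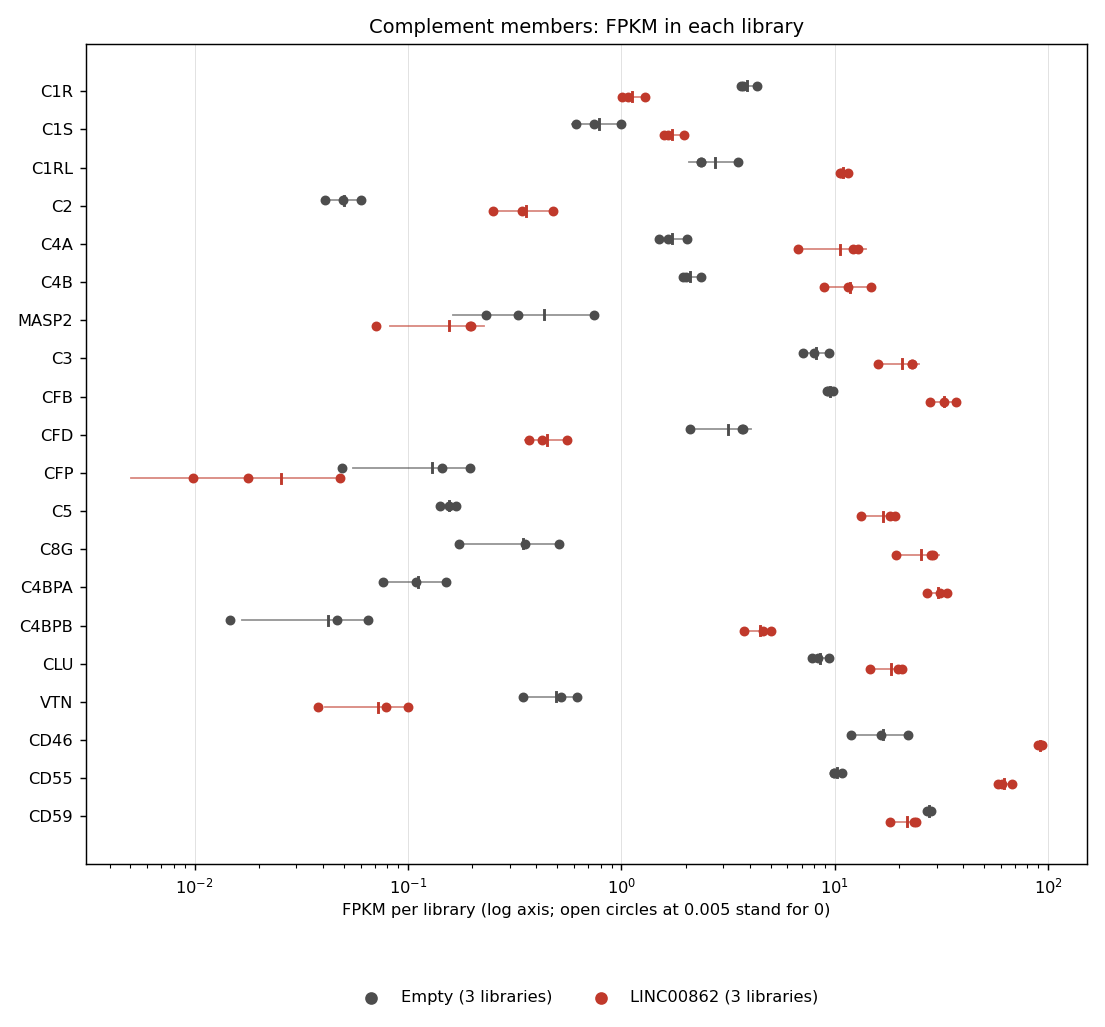
FPKM of the tested complement members in each library (log axis, 1 point per library, with the mean and SD of each group of 3). C5, C8G, C4BPA and C4BPB lie under 1 FPKM in every Empty library and above 3 in every LINC00862 library, while C1R, CFD, CFP, VTN and MASP2 lie lower in the LINC00862 libraries.

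Several complement members are neighbours in the genome (coordinates of the deposited table, hg38). C4BPB, C4BPA, CD55 and CD46 lie within chromosome 1 from 207088860 to 207795513, the cluster of complement regulators, and all 4 rose. Of the 2 other genes tested in that stretch, CR2 rose and none fell. C2, CFB, C4A and C4B lie within chromosome 6 from 31897785 to 32035418, in the class III region of the major histocompatibility complex, and all 4 rose. Of the 10 other genes tested there, 3 rose and none fell, which is near the 34.4% of all genes called higher, namely C2-AS1 and C4A-AS1, which are antisense to members, and the pseudogene CYP21A1P. The promoter of CD46, the most abundant member in the LINC00862 libraries, is shown as an example from the first cluster. It is the 250 bases before the RefSeq transcription start on the plus strand of GRCh38.p14, chr1:207751788-207752037. Capitals mark the GC boxes GGGCGG, here on the opposite strand, 48 and 19 bases before the start.
CD46: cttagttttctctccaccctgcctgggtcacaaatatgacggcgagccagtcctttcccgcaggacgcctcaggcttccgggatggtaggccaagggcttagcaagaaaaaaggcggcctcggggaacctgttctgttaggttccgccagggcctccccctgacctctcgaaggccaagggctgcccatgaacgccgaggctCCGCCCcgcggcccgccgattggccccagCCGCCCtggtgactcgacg

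RefSeq promoters were given for 46 of the 58 members, 14 of which rose, 10 of which fell and 22 of which were not called or not tested. In the 250 bases before the start, read on both strands, the GC box was found in 6 of the 14 that rose, 3 of the 10 that fell and 0 of the other 22, and in 42.6% of all 35116 promoters. An HNF4 half-site CAAAGTC was present in 0, 1 and 3 of them and in 2.91% of all, and a C/EBP site TTGCNNAA in 1, 3 and 5 and in 9.05% of all. The TATA box TATAAA was present in 1, 2 and 3 and in 10.7% of all. The AP-1 site TGANTCA was present in 2 that rose (C1RL and TFPI2), 2 that fell (F3 and PLAUR) and none of the other 22, and in 6.57% of all promoters. Such a match describes letters only.

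Turning to coagulation, the initiator and its partner protease moved in opposite directions. F3, the tissue factor that starts clotting on cell surfaces, had an FPKM of 99.5, 100.3 and 77.5 in the 3 Empty libraries, against 5.82, 4.86 and 5.55 in the LINC00862 libraries (log2 fold change -3.91, SE 0.18, adjusted p = 2.76e-07), or 15.0-fold lower. It was the most abundant member in the Empty libraries, at rank 381 of all genes. F7, the protease that tissue factor binds, had an FPKM of 0, 0.0256 and 0.0556 against 5.36, 5.20 and 5.73, from 0, 7 and 15 counts against 1560, 1306 and 1461. The log2 fold change of F7 was 7.68 (SE 0.63, adjusted p = 8.28e-06), and it ran from 7.07 without Empty replicate 1 to 8.76 without Empty replicate 3. The groups did not overlap for either gene, and in the LINC00862 libraries their FPKM were close to each other.

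The other vitamin K dependent zymogens were all low. F10, the factor X activated by factor VII, rose from a mean FPKM of 0.0702 to 0.288 (log2 fold change 2.17, SE 0.46, adjusted p = 0.00279), and it adjoins F7 on chromosome 13. PROC, the protein C that inactivates factors V and VIII, fell from 0.303 to 0.0637 (-2.03, SE 0.66, adjusted p = 0.023). The call for PROC was lost without Empty replicate 2 (-1.43, adjusted p = 0.119), LINC00862 replicate 1 (adjusted p = 0.0741) or LINC00862 replicate 3 (adjusted p = 0.0522). F2, the prothrombin gene, had 0, 6 and 11 counts against 12, 0 and 15, and its log2 fold change of 0.73 had a 95% interval from -2.16 to 3.62 (adjusted p = 0.635). The value ran from 0.0041 without LINC00862 replicate 3 to 1.65 without Empty replicate 3. A difference in F2 was therefore not detectable at this depth.

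The cofactors were also low. F5, the cofactor of factor X, rose from a mean FPKM of 0.0136 to 0.736 (log2 fold change 5.84, SE 0.73, adjusted p = 0.000112), with values of 5.24 without Empty replicate 1 and 6.51 without Empty replicate 2. F8, the cofactor of factor IX, was 0.359 to 0.600 in the Empty libraries and 0.245 to 0.307 in the LINC00862 libraries and fell slightly (-0.68, SE 0.25, adjusted p = 0.0411). Of the left-out libraries, Empty replicate 3 alone left that call standing, and leaving out any other gave an adjusted p from 0.0766 to 0.124. VWF, which carries factor VIII and is made by endothelial cells, was not called (-0.08, 95% interval -1.19 to 1.03, adjusted p = 0.902). F13A1, the catalytic chain of factor XIII that cross-links fibrin, was not called either (0.06, 95% interval -0.89 to 1.0, adjusted p = 0.917), and F13B was under the filter with 5 and 3 counts per group.

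In the contact system, which starts clotting on charged surfaces, F12 was the only tested member. It had an FPKM of 1.58, 1.80 and 2.78 in the 3 Empty libraries, against 6.17, 6.36 and 4.77 in the LINC00862 libraries (log2 fold change 1.64, SE 0.26, adjusted p = 0.000528). The groups did not overlap. Its partners KLKB1, the plasma prekallikrein, and KNG1, the kininogen, had 0 or few counts, at most 8 in any library.

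Of the anticoagulants, 2 rose, 1 fell and 1 was not called. TFPI2, a Kunitz-type inhibitor of plasmin and factor VIIa, had an FPKM of 0.813, 0.759 and 0.530 in the 3 Empty libraries, against 4.25, 4.15 and 5.00 in the LINC00862 libraries (log2 fold change 2.85, SE 0.25, adjusted p = 1.31e-05). THBD, the thrombomodulin that turns thrombin towards protein C, had 1.93, 1.34 and 1.43 against 4.43, 4.40 and 3.78 (1.6, SE 0.18, adjusted p = 5.53e-05). PROCR, the endothelial protein C receptor, had 16.7, 22.1 and 17.1 against 5.11, 4.54 and 3.76 (-1.89, SE 0.19, adjusted p = 3.07e-05). The groups did not overlap for these 3 genes, so the receptor and the thrombomodulin of the same protein C pathway moved in opposite directions. TFPI, the inhibitor of the tissue factor and factor VIIa complex, had 7.73, 7.32 and 6.36 against 7.21, 5.99 and 7.29. Its ranges overlapped, and the log2 fold change was 0.12 with a 95% interval from -0.23 to 0.47 (adjusted p = 0.52). The ratio of F3 to TFPI was between 12.2 and 13.7 in the Empty libraries and between 0.762 and 0.811 in the LINC00862 libraries.

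The protease-activated receptors carry the signal of clotting proteases into cells. F2R, the thrombin receptor PAR1, had an FPKM of 58.1, 36.1 and 26.6 in the 3 Empty libraries, against 0.276, 0.171 and 0.277 in the LINC00862 libraries. This was a log2 fold change of -7.17 (SE 0.36, adjusted p = 4.33e-07), or 144-fold lower. The Empty libraries themselves spread widely, with a coefficient of variation of 40.2%, and still lay far above the LINC00862 libraries. F2RL1, the receptor PAR2, had 3.28, 2.10 and 1.94 against 3.42, 2.84 and 3.58. Its ranges overlapped, and it rose by little (0.62, SE 0.24, adjusted p = 0.0441). This call was lost without Empty replicate 2 or 3 or LINC00862 replicate 1 or 3 (adjusted p from 0.104 to 0.144). Both genes lie on chromosome 5, and the ratio of F2R to F2RL1 was between 13.7 and 17.7 in the Empty libraries and between 0.0603 and 0.0807 in the LINC00862 libraries.

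The plasminogen system fell in 3 of its 4 tested members. PLAU, the urokinase that activates plasminogen at the cell surface, had an FPKM of 65.1, 67.4 and 71.1 in the 3 Empty libraries, against 0.380, 0.663 and 0.373 in the LINC00862 libraries (log2 fold change -7.00, SE 0.26, adjusted p = 9.83e-08), or 128-fold lower. PLAUR, its receptor, had 13.1, 14.3 and 17.5 against 3.31, 3.43 and 2.44 (-2.12, SE 0.19, adjusted p = 1.42e-05). PLAT, the tissue plasminogen activator, had 3.07, 2.97 and 2.57 against 0.0566, 0.0927 and 0.155 (-4.60, SE 0.38, adjusted p = 9.35e-06). None of the 3 overlapped between the groups. The falls of PLAU and F2R differed by less than the SE of either, and their order turned on log2(FPKM + 1), where PLAU had -5.55 and F2R -4.98. The ligand fell by far more than its receptor, and the ratio of PLAU to PLAUR went from between 4.07 and 4.97 to between 0.115 and 0.193. CPB2, a carboxypeptidase that slows fibrin lysis, was near the filter and not called (0.70, 95% interval -2.31 to 3.70, adjusted p = 0.665), with values from 0.12 without Empty replicate 1 to 2.25 without Empty replicate 2. HRG, which binds plasminogen, was under the filter with 0 counts in each Empty library and 16, 6 and 8 in the LINC00862 libraries, at least 9.53-fold higher over the groups. A2M, the broad protease inhibitor alpha-2-macroglobulin, was low at a mean FPKM of 0.202 and 0.151 and was not called (-0.25, 95% interval -1.0 to 0.51, adjusted p = 0.536). Exons of genes on the opposite strand overlap those of PLAU, F2R, F12, TFPI, TFPI2, PROCR, F8, F10, KNG1, HRG and A2M, and among the complement members those of C1RL, C2, C4A, C4B, C8B, MASP1 and MASP2, and whether the counting used strand is not stated, so reads from either partner cannot be told apart there.

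The promoters of F3 and PROCR are shown as examples of members that were abundant in the Empty libraries and fell. For PROCR the window is chr20:35171822-35172071 on the plus strand, and for F3 it is chr1:94541801-94542009 on the minus strand, where it stops before the first annotated exon (GRCh38.p14, RefSeq starts). In F3 capitals mark AP-1 sites TGANTCA 223 and 210 bases before the start. They also mark GC boxes 137, 104, 78 and 65 bases before the start, that at 137 on the opposite strand. A TATA box 28 bases before the F3 start lies past the part shown. In PROCR capitals mark a GC box 153 bases before the start. On the opposite strand they mark a TATA box 82 and a GC box 22 bases before the start.
F3: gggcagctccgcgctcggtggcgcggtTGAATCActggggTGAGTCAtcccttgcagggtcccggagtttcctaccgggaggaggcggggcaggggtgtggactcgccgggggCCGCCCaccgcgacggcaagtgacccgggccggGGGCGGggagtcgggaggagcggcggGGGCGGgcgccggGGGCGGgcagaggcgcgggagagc
PROCR: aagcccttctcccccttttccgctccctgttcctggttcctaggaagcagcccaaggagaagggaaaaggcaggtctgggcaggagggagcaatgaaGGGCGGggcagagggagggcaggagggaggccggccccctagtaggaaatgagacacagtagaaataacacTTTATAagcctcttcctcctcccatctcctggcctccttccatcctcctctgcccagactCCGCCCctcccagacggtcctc

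**Figure D3:**
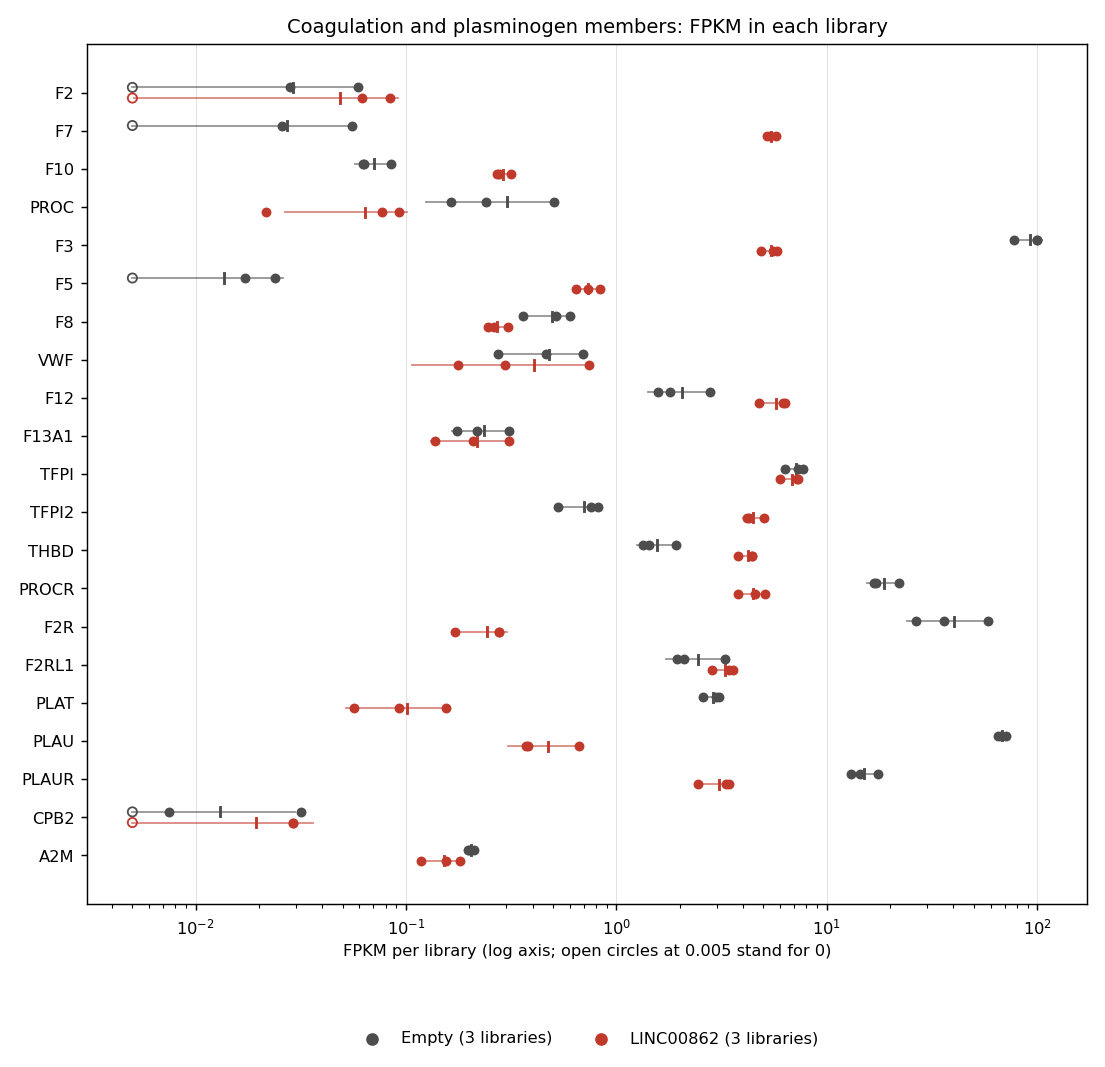
FPKM of the tested coagulation and plasminogen members in each library (log axis, 1 point per library, with the mean and SD of each group of 3, and open circles for libraries at 0). F3, PLAU and F2R are at 26.6 FPKM or more in every Empty library and at 5.82 or less in every LINC00862 library, while F7 goes the other way.

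**Figure D4:**
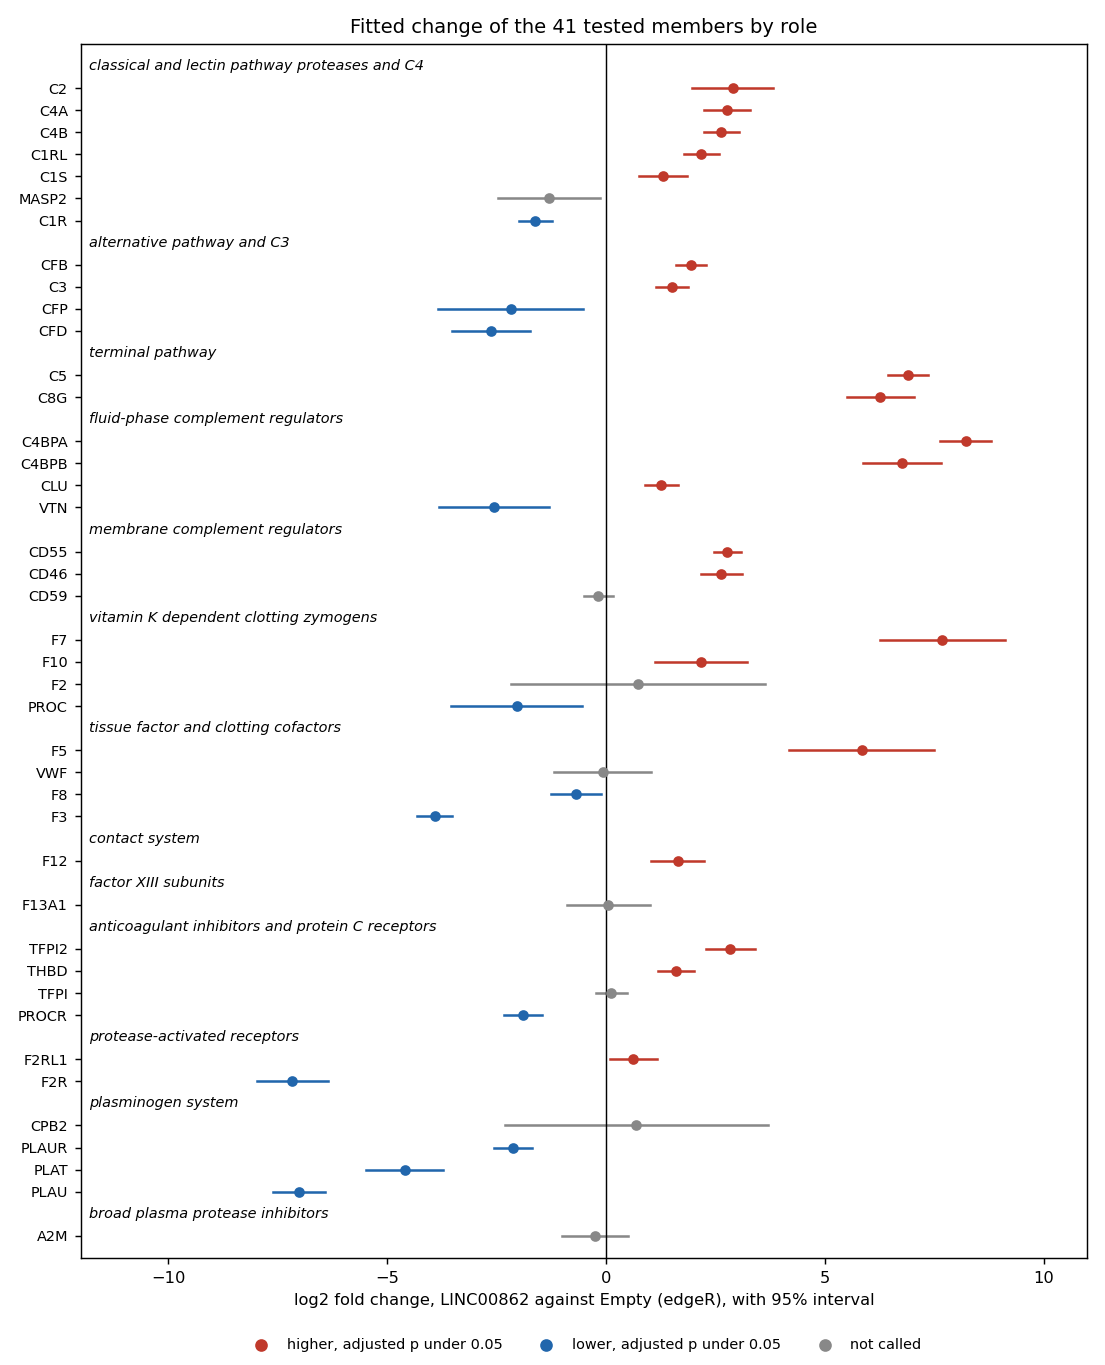
Fitted log2 fold change of LINC00862 over Empty for the 41 tested members, with 95% intervals, from edgeR on 3 libraries per group. Values run from -7.17 for F2R to 8.22 for C4BPA, and the widest intervals are those of F2 and CPB2, which had few counts.

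Within a group the libraries also differed among themselves. Over the 24 members that averaged 1 FPKM or more in the LINC00862 libraries, the coefficient of variation had a median of 13.7% and ran from 2.09% for CD46 to 32.1% for C4A. LINC00862 replicate 3 was the lowest of its group for 16 of these 24. It was also the library with the highest share of counts in its 10 most abundant genes, and the part of this in the lower values was not tested. Over the 21 members that did so in the Empty libraries the median was 14.3%. In all, 35 of the 41 tested members (85.4%) had FPKM ranges that did not overlap between the groups, against 71.1% of all genes tested.

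Other genes of the same pathways were read beside the members. From a second list of 67 genes (other recognition molecules and receptors, the enzymes of vitamin K dependent maturation, and partners of clotting proteins), 61 were in the table and 45 were tested, of which 20 rose (44.4%) and 10 fell (22.2%), against 34.4% and 29.8% of all genes. Of the 16 complement genes among them 6 rose and none fell, a share higher of 37.5% that is near that of all genes, of 10 genes for maturation and secretion 5 rose and 3 fell, and of 19 clotting partners 9 rose and 7 fell. GGCX, the gamma-glutamyl carboxylase, rose by 1.22 on the log2 scale, and LMAN1 and MCFD2, which carry factors V and VIII out of the endoplasmic reticulum, by 1.96 and 1.58. ITIH2, a heavy chain of the inter-alpha-trypsin inhibitor, rose from a mean FPKM of 0.0743 to 23.4 (log2 fold change 8.41, adjusted p = 4.25e-08). HABP2, a hyaluronan-binding protease that can activate factor VII, had 4 counts in all Empty libraries and 9018 in all LINC00862 libraries, and its fitted value of 11.10 (adjusted p = 1.87e-07) rose to 14.57 without Empty replicate 1. CR2, a receptor for C3 fragments, had a log2 fold change of 7.23, and PCSK6, a proprotein convertase, had 6.45, or 7.19 without Empty replicate 1.

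Among genes of the second list with a mean of at least 1 FPKM in either group, the 5 largest falls were those of ITGB3, LRP1, ANXA2, GAS6 and PROS1. F2RL2, the receptor PAR3, lay under that limit and is named after its values were seen, with a log2 fold change of -4.96 (adjusted p = 0.00178). ITGB3, the beta chain of the vitronectin receptor, fell from a mean FPKM of 3.57 to 0.0821 (log2 fold change -5.22, adjusted p = 4.28e-06). LRP1, which clears protease and inhibitor complexes, fell from 11.7 to 0.802 (-3.68, adjusted p = 2.25e-06). ANXA2, which docks plasminogen and its activator at the cell surface, fell from 324.5 to 37.0 (-2.97, adjusted p = 1.30e-06). GAS6 and PROS1, related vitamin K dependent ligands of the TAM receptors, fell by 2.90 and 1.83 on the log2 scale. PROS1 encodes the protein S that C4b-binding protein carries, so it moved opposite to C4BPA and C4BPB.

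The cell type label was set beside marker lists, since in bulk RNA fewer cells of a type and less RNA per cell cannot be told apart. Of 17 hepatocyte and hepatoma markers, 12 were tested, of which 10 rose (83.3%), AFP fell and KRT8 was not called. The summed FPKM of the list ran from 197.6 to 290.2 in the Empty libraries and from 292.3 to 347.7 in the LINC00862 libraries. Most of that sum was KRT8 and KRT18, and without them it ran from 3.49 to 4.90 against 39.2 to 44.9. Defining markers were at or near 0 in the Empty libraries, with 7 counts for ALB, 4 for HNF4A and 0 for TTR over the group, against 1099, 72 and 214 counts in the LINC00862 group. AFP had 68 counts against 0, and APOA1 had 14 against 4. Of 9 fibroblast and stellate markers, 2 rose (COL1A1 and LUM, 22.2%) and 3 fell (THY1, PDGFRB and ACTA2, 33.3%), with summed FPKM of 47.1 to 58.3 against 12.6 to 16.2. THY1 was the largest part of that fall, and without it the sum was 9.25 to 10.2 against 12.5 to 16.1. Within that remainder PDGFRB and ACTA2 fell, from mean FPKM of 3.63 and 1.61 to 0.0538 and 0.527. COL1A1 and LUM rose there, from 2.43 and 1.06 to 10.6 and 1.86. Of 7 endothelial markers 6 were tested and 2 rose (CDH5 and EGFL7, 33.3%), with sums of 2.09 to 2.92 against 13.7 to 17.6. CDH5 and EGFL7 carried that rise, from mean FPKM of 0.403 and 1.36 to 4.47 and 11.2. PECAM1, KDR, TEK and ERG were not called. Of 8 macrophage and blood markers 2 rose (CD68 and CD14, 25%), with sums of 3.98 to 4.19 against 9.93 to 15.5. Of 5 platelet markers 4 were tested and 2 rose (ITGA2B and TUBB1, 50%), with sums of 0.495 to 0.914 against 1.05 to 1.59. Over all genes tested, 34.4% rose and 29.8% fell. The endothelial, macrophage and fibroblast shares higher were thus near or under that of all genes. The identity of the cells in each group was not tested beyond these markers. The part of these marker differences in the values of the complement and coagulation members was not tested.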

How the data were processed

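RNA of HCCLM3 cells was sequenced by the authors in 6 stranded, oligo(dT)-selected libraries, 3 with LINC00862 and 3 Empty. The authors deposited a table of read counts and FPKM per gene and library, where FPKM are mapped fragments per kilobase of transcript scaled to the size of the library. The submitters' processing notes name cutadapt 1.9, HISAT2 2.0.4, UMI-tools, StringTie 1.3.4d, DESeq2, edgeR and the build hg38. Whether counting used strand or collapsed molecular identifiers is not given in the sources used here, and shared or antisense reads can therefore blur overlapping genes.

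The deposited counts were fitted with edgeR 4.0.16 in R 4.3.3 by the quasi-likelihood test with a term for group. Genes under the equivalent of 10 counts at the median library size (0.169 CPM) in too many libraries were removed (filterByExpr), TMM scaled the libraries, and p-values were adjusted by Benjamini-Hochberg over the 20741 genes left. SE were derived from the test statistic. Depth was 58241123 to 68229070 counts per library. With 3 libraries per group the smallest exact two-sided permutation p for a single gene is 0.1, so single genes were tested only in the fit over all genes. The fit was tested on simulated counts in which 200 of 20741 genes were changed by 2-fold or 4-fold. It called 85% and 98% of these, and 5 unchanged genes. In the real libraries 64.2% of genes were called, so the simulation does not show how TMM scaling behaves with so many differences.

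Every listed member is accounted for. Values per library are given for the 25 called members that averaged 1 FPKM or more in either group and changed by at least 2-fold. From the second list, the 5 largest called changes in each direction under the same FPKM limit are named with group values or fold changes, except for an item that is not reported here. The members, the second list and the marker lists were chosen with earlier results of these data known. Shared sequence was measured on GENCODE 29 transcripts, and promoters come from RefSeq (GRCh38.p14). Alternatives were DESeq2 1.42.0, upper quartile scaling, no scaling beyond library size, no count filter, a replicate block, limma 3.58.1 on log2(FPKM + 1) and log2(FPKM + 0.1), testing for more than a 2-fold change, a stricter adjusted p of 0.01, and leaving out each library.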

Additional observations from a re-analysis of the deposited data

How the results depend on the processing

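Of the 33 called members, 27 kept their direction and call under all 15 alternatives. C1S and CLU lost the call only in the test against a fold change of 2, and CFP, F8, F2RL1 and PROC lost it under several settings. Calls ranged from 18 to 23 members higher and from 9 to 13 lower. The median log2 fold change of the tested members was 0.73, and it was 1.54 with every gene of at least 1 count, 0.57 with library size only, 0.94 with upper quartile scaling, 0.44 on log2(FPKM + 0.1), 0.27 on log2(FPKM + 1), 0.86 with the replicate block, and 0.90 to 1.54 with 1 library left out. Leaving the filter off adds genes to that median, and otherwise the cause was not tested. Over all genes the median moved from 0.11 under TMM to 0.32 (upper quartile), 0.16 (DESeq2) or -0.05 (library size only).

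Signs turned only in members that were not called. CD59 was 0.039 and VWF 0.13 with upper quartile scaling. TFPI was -0.052 with library size only, -0.064 on log2(FPKM + 0.1) and -0.056 on log2(FPKM + 1), and F13A1 was -0.094, -0.087 and -0.020 in the same order. With 1 library left out, VWF ran from -0.79 to 0.26 and F13A1 from -0.26 to 0.36. Deviations from the group means correlated at only -0.0489, -0.0254 and -0.00737 between libraries of the same replicate number, so no shared effect was seen. These values cannot show whether such libraries were prepared together, and the labels do not say. The replicate block left 20 members higher and 11 lower. MASP2 was called with DESeq2, with library size only and with the block. With no count filter, 3 of the 11 members under it were called higher, namely CFHR3 (adjusted p = 0.0201), C8A (0.0252) and HRG (0.0168), each with 0 counts in the Empty group, and the other 8 were not.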
